A study of Homo sapiens with 9 samples.

Results

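The count table held 8 rows for the human microRNAs (miRNAs) miR-320a to miR-320e, miR-484 and miR-877, out of 1198 rows of mature miRNAs. They were taken by name, with every arm included. miR-320a, miR-484 and miR-877 are described as made without the nuclease Drosha, and miR-320b to miR-320e were taken with miR-320a for their sequence. The rows were miR-320a-3p, miR-320b, miR-320c, miR-320d, miR-320e, miR-484, miR-877-3p and miR-877-5p. Small RNA libraries were made from HCT116, an immortal line grown from a human colorectal carcinoma, and from a pair of its drug-resistant sublines. HCT-FU-c (HCT_FU in the labels) was selected with 5-fluorouracil and HCT-Oxa-c (HCT_Oxa) with oxaliplatin, both by unbroken exposure to rising drug concentrations, and the parental cells (HCT-116) carried neither resistance. Each drug is represented by 1 selected subline, and each line gave 3 biological replicates, so differences are between these lines and cannot be told apart from differences between any sublines grown apart. All lines shared the HCT116 background and, per the labels, an RPMI medium, whereas the study's methods name DMEM.

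Most miRNAs are cut from a long primary transcript by Drosha, with its partner DGCR8, and then trimmed by Dicer. The miR-320a precursor is instead a short capped transcript that begins where the hairpin begins, so that only Dicer cuts it, and the arm away from the cap is favoured. miR-484 is likewise described as made without Drosha, from the start of a host transcript. miR-877 is a mirtron, in which a whole short intron is released by splicing, opened by the debranching enzyme and folded into a Dicer substrate. miR-320b to miR-320e are grouped with miR-320a by sequence. The libraries measured mature miRNAs and not how any of them was made.

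The mature sequences below are shown because miR-320b to miR-320e are near copies of one another, which bears on their counts. miR-484 and miR-877 share no seed with them. They were taken from RefSeq on GRCh38.p14, where 7 of the 8 rows had a match, and run 5′ to 3′ with the seed (bases 2 to 8) in capitals.
miR-320b: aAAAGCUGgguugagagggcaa
miR-320c: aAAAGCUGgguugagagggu
miR-320d: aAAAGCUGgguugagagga
miR-320e: aAAGCUGGguugagaagg
miR-484: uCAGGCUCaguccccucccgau
miR-877-5p: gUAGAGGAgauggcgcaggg
miR-877-3p: uCCUCUUCucccuccucccag

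miR-320b, miR-320c and miR-320d carried the same seed, and miR-320e, which begins 1 base later in the shared stretch, carried another. miR-320b and miR-320c were identical over their first 19 bases, and miR-320d matched both over its first 18 bases. miR-320e shared a run of 15 bases with each of miR-320b, miR-320c and miR-320d. The rows miR-320b to miR-320e therefore differ mainly in their last bases, where reads are trimmed and mapped. How a read that matches several of them was counted is not given in the sources used here, so the split of reads among the miR-320 rows is uncertain, and their sum is given beside it. miR-484 shared its seed in the reference with miR-3155a and miR-3155b, of which miR-3155a was in the table with 0 to 3 counts per library. The miR-4429 entry shared the seed of miR-320b, miR-320c and miR-320d and had no row in the table.

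The loci fall into separate settings of the genome. MIR877 lies at chr6:30584332-30584417 on the plus strand and fills intron 13 of ABCF1-201 from end to end, an intron of 86 bases, by GENCODE 29 on GRCh38. Its sequence is shown because the mature arms are the very ends of the intron, with the splice site bases in capitals.
MIR877: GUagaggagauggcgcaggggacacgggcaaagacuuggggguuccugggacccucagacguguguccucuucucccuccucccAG
MIR484 lies at chr16:15643294-15643372 on the plus strand, in exon 1 of NDE1-202 and upstream of its coding sequence. The loci of miR-320b to miR-320e are scattered, and that of miR-320a was not among the entries searched. MIR320B1 at chr1:116671746-116671817 (plus), MIR320D1 at chr13:40727816-40727887 (minus) and MIR320D2 at chrX:140926160-140926231 (minus) overlapped no other annotated gene. MIR320B2 at chr1:224257040-224257110 (minus) lies in intron 18 of NVL-201, and MIR320E at chr19:46709282-46709354 (minus) lies in intron 3 of PRKD2-201, both on the host's strand. MIR320C1 at chr18:21683518-21683589 (plus) and MIR320C2 at chr18:24321675-24321746 (plus) lie in introns of ABHD3 and OSBPL1A, on the strand opposite to the host.

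The libraries held 856383 to 2207538 counts, with the replicate 3 library the shallowest of each line. The limit that 3 counts set was 1.34 to 4.01 counts per 1000000 (CPM, with library sizes normalized by the trimmed mean of M values), which covers counting error only. miR-21-5p alone took 40.0% to 57.1% of a library. The 5 epithelial marker miRNAs fixed for these cells summed to 16783 to 22694 CPM, mostly from miR-200b-3p and miR-200c-3p. The white cell list summed to 0 to 15.4 CPM and miR-143-3p with miR-145-5p to 177 to 674 CPM. Of the epithelial list, miR-192-5p (34.5 to 70.2 CPM) and miR-194-5p (48.2 to 202 CPM) did not stand above miR-143-3p (60.4 to 561 CPM) and miR-145-5p (64.3 to 168 CPM). The replicate 3 libraries stood apart from the other 6. The red cell miRNA miR-451a had 0 to 2 counts in replicates 1 and 2 and 86, 70 and 246 counts in replicate 3 of HCT116, HCT-FU-c and HCT-Oxa-c, and results that rest on replicate 3 are given below with and without it.

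Of the 8 rows, 6 passed the filter on low counts and were tested among 367 miRNAs. miR-320e had 28 reads in all, 0 to 11 per library, and miR-877-3p had 54, 0 to 12 per library, so both were too shallow to compare. Among the 367 tested miRNAs ranked by mean CPM, miR-320a-3p stood at 50, miR-484 at 104, miR-320b at 192, miR-877-5p at 218, miR-320c at 250 and miR-320d at 286. CPM of different miRNAs also reflects how well each is ligated and amplified, so this order is a description.

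miR-320a-3p, the arm that is loaded from the capped miR-320a precursor, was the most abundant of these miRNAs. Its level was 1237.3, 1297 and 2151 CPM in replicates 1, 2 and 3 of HCT116, 924, 1549 and 2524 CPM in HCT-FU-c, and 1384, 1581 and 2742 CPM in HCT-Oxa-c. Replicate 3 was the highest library of every line, and the ranges of the lines overlapped. The means were 1562 ± 512 CPM in HCT116, 1665 ± 806 in HCT-FU-c and 1903 ± 734 in HCT-Oxa-c (SD, n = 3). Neighbours in this order differed by less than their SDs.

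miR-320b, which is annotated at a pair of loci with the same mature sequence, was far less abundant. It had 44.8, 29.3 and 69.4 CPM in HCT116, 26.4, 34.1 and 73.8 CPM in HCT-FU-c, and 53.5, 44.7 and 56.4 CPM in HCT-Oxa-c. The lines overlapped, with means of 47.8 ± 20.3, 44.8 ± 25.4 and 51.5 ± 6.09 CPM (SD, n = 3). miR-320c had 17.0, 15.7 and 37.4 CPM in HCT116, 11.3, 14.7 and 14.3 CPM in HCT-FU-c, and 18.9, 19.2 and 19.5 CPM in HCT-Oxa-c. Every HCT-FU-c library was below every library of the other lines for miR-320c. Of all tested miRNAs, 8.72% did not overlap between HCT-FU-c and HCT116, and 22.9% did not between the sublines. The miR-320c levels rest on 12 to 43 reads per library, so that counting error alone is wide. miR-320d, with 7 to 38 reads per library, ranged from 5.71 to 21.4 CPM in HCT116, 3.68 to 16.7 CPM in HCT-FU-c and 6.70 to 22.6 CPM in HCT-Oxa-c, and the lines overlapped.

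Summed over all miR-320 rows, the level was 1645 ± 550 CPM in HCT116, 1736 ± 841 in HCT-FU-c and 1993 ± 740 in HCT-Oxa-c (SD, n = 3). miR-320a-3p made up 93.4% to 96.7% of the miR-320 reads of a library. The remaining rows, miR-320b to miR-320e, made up 5.50%, 3.76% and 5.62% of them in HCT116 libraries, 4.75%, 3.28% and 4.29% in those of HCT-FU-c, and 6.61%, 4.40% and 3.50% in those of HCT-Oxa-c. The highest share, in HCT-Oxa-c replicate 1, had a 95% Wilson interval of 5.75% to 7.59%, and the lowest, in HCT-FU-c replicate 2, one of 2.70% to 3.97%. Those intervals cover counting error only. The share thus varied among libraries of 1 line as widely as between lines.

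The mean share of miR-320b to miR-320e was 4.96% ± 1.04 in HCT116, 4.11% ± 0.752 in HCT-FU-c and 4.84% ± 1.60 in HCT-Oxa-c (SD, n = 3). In two-sided exact permutation tests over the 3 pairs of lines, p was 0.9 for HCT-Oxa-c against HCT116, 0.3 for HCT-FU-c against HCT116 and 0.6 for HCT-Oxa-c against HCT-FU-c, and 0.9 for each after adjustment. With 3 libraries against 3 the smallest p this exact test can give is 0.1.

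miR-484, encoded in the first exon of an NDE1 transcript, had 233, 242 and 116 CPM in HCT116, 361, 357 and 136 CPM in HCT-FU-c, and 199, 216 and 132 CPM in HCT-Oxa-c, from 87 to 680 reads. Replicate 3 was the lowest library of every line, and all 3 replicate 3 libraries lay below the 6 others. The means were 197 ± 70.3 CPM in HCT116, 285 ± 129 in HCT-FU-c and 182 ± 44.3 in HCT-Oxa-c (SD, n = 3), and the full ranges overlapped. Within replicates 1 and 2, the HCT-FU-c libraries were the highest.

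miR-877-5p, the 5′ arm of the ABCF1 mirtron, had 34.6, 27.1 and 56.1 CPM in HCT116, 22.7, 25.7 and 36.9 CPM in HCT-FU-c, and 22.5, 17.0 and 18.5 CPM in HCT-Oxa-c, from 18 to 51 reads. The HCT-Oxa-c libraries were below all libraries of both other lines, by little for replicate 1 against HCT-FU-c (22.5 and 22.7 CPM). Of all tested miRNAs, 16.1% did not overlap between HCT-Oxa-c and HCT116, and 22.9% did not between the sublines. The means were 39.3 ± 15.03, 28.4 ± 7.50 and 19.3 ± 2.87 CPM (SD, n = 3). HCT-FU-c lay between the others, and its range overlapped that of HCT116.

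The opposite arm, miR-877-3p, was scarce. The 5p arm made up 89.5%, 80.9% and 100% of the miR-877 reads in HCT116 libraries, 73.2%, 80.3% and 100% in those of HCT-FU-c, and 86.0%, 88.4% and 81.8% in those of HCT-Oxa-c. The values of 100% stand for 42 of 42 and 31 of 31 reads, with Wilson intervals from 91.6% and 89.0% upward. The two-sided exact permutation p was 0.5 for HCT-Oxa-c against HCT116, 0.6 for HCT-FU-c against HCT116 and 0.9 for HCT-Oxa-c against HCT-FU-c, each 0.9 after adjustment over the 3 pairs. With 3 libraries against 3 this exact test cannot go below 0.1, so it could not have passed 0.05.

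Other miRNAs described as mirtrons were looked up from a chosen list, which does not hold every mirtron, and had few reads. The list gave 8 rows, from miR-1224, miR-1226, miR-1227, miR-1229, miR-1234 and miR-1237. Of these rows 1 was tested, namely miR-1226-3p. HCT116 gave 21, 28 and 2 counts of it, HCT-FU-c gave 20, 30 and 11, and HCT-Oxa-c gave 19, 37 and 2, so that replicate 3 was the lowest library of each line and the lines overlapped. Its log2 fold change was -0.36 (SE 0.72) in HCT-Oxa-c and 0.21 (SE 0.72) in HCT-FU-c against HCT116, with adjusted p = 1.00 and 0.997 in edgeR's quasi-likelihood test. The other 7 rows had 0 to 6 counts per library. miR-1228-3p, from a mirtron-like intron, had 0 to 1.

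The first comparison asks what differs in the oxaliplatin-resistant subline from its parent. None of the 6 tested members passed an adjusted p of 0.05 (Benjamini-Hochberg over 367 miRNAs) in edgeR's quasi-likelihood test or in DESeq2, against 2.45% of all tested miRNAs in edgeR. At an unadjusted p under 0.05, edgeR gave 1 of 6 members and 38 of the 367. That member was miR-877-5p, lower in HCT-Oxa-c in each of the 3 same-numbered pairs, with CPM ratios of 0.651, 0.626 and 0.329. Its fitted log2 fold change was -1.01 (SE 0.35, 95% interval -1.81 to -0.21), with adjusted p = 0.261 in edgeR. With replicates 1 and 2 only the log2 fold change was -0.65.

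With the replicate number as a block, which removes what libraries of the same number share, miR-877-5p had a log2 fold change of -0.92 (SE 0.32) and adjusted p = 0.0577 in edgeR. This model called none of the 6 members and 14.7% of all miRNAs. miR-877-5p was also the 1 member whose HCT-Oxa-c and HCT116 libraries did not overlap, a pattern found in 16.1% of the tested miRNAs. Both shares are read as background, and a fall of miR-877-5p was not called here.

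The miR-320 rows and miR-484 gave small or wide differences in the same comparison. The log2 fold change in edgeR was 0.28 for miR-320a-3p (95% interval -0.67 to 1.24), 0.12 for miR-320b (-0.88 to 1.11), -0.26 for miR-320c (-1.12 to 0.61) and 0.52 for miR-320d (-1.11 to 2.14), which ran from 0.20 (HCT116 replicate 2 left out) to 1.204 (HCT116 replicate 3 left out). For miR-484 it was -0.11 (-1.09 to 0.86). Every one of these intervals, from the line alone, held 0, and each reached past a log2 difference of 0.5 in both directions. With the block they still held 0 but were narrower for miR-320a-3p (-0.055 to 0.58) and miR-484 (-0.46 to 0.31). In same-numbered pairs, HCT-Oxa-c was higher in 3 of 3 for miR-320a-3p and miR-320d. It was higher in 2 of 3 for miR-320b and miR-320c and in 1 of 3 for miR-484. The median over the 6 members was 0.0013 on the log2 scale, beside -0.012 over all 367, with 3 members higher and 3 lower.

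**Figure D1:**
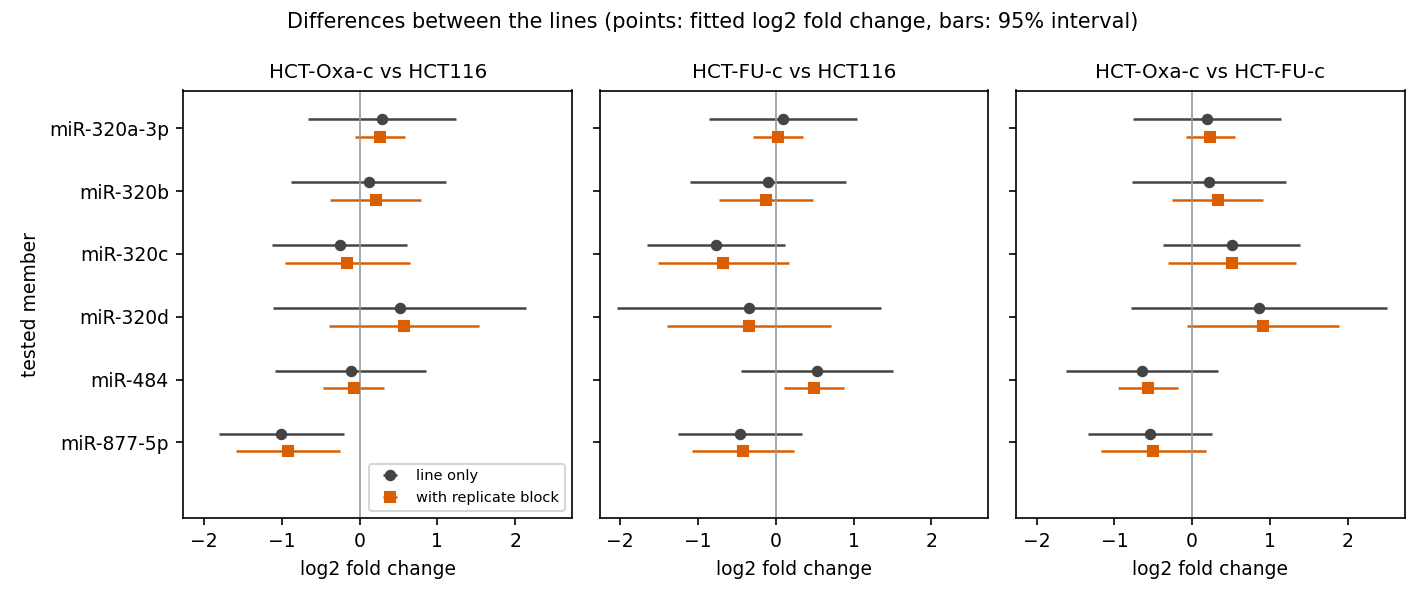
Fitted log2 fold changes of the 6 tested members in the 3 comparisons, with 95% intervals as bars, for the model with the line alone (grey circles) and with the replicate number as a block (orange squares). The intervals of miR-877-5p in HCT-Oxa-c against HCT116 lie below 0 in both models, and the block narrows those of miR-320a-3p and miR-484.

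The second comparison asks the same of the 5-fluorouracil-resistant subline. edgeR's quasi-likelihood test called 0 of the 6 members at an adjusted p of 0.05, and 0% of all tested miRNAs, with 0 members and 15 of the 367 at an unadjusted p under 0.05. DESeq2 called none of the members and 4 miRNAs in all. miR-320c had a log2 fold change of -0.77 (SE 0.39, 95% interval -1.66 to 0.12) with adjusted p = 0.918 in edgeR. It shrank to -0.31 with replicates 1 and 2 only and to -0.28 with HCT116 replicate 3 left out. Its HCT-FU-c libraries lay below the HCT116 libraries without overlap, as those of 8.72% of the tested miRNAs lay apart in either direction.

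miR-484 was higher in HCT-FU-c than in HCT116 in 3 of 3 same-numbered pairs, with CPM ratios of 1.55, 1.48 and 1.17. Its log2 fold change was 0.53 (SE 0.43, 95% interval -0.45 to 1.50) with adjusted p = 0.997 in edgeR. With the replicate block it was 0.49 (SE 0.19, 0.11 to 0.88) with adjusted p = 0.122, in a model that called no member and 5.45% of all miRNAs. The ratios point one way, but the difference did not pass the test in either model with all libraries. With the block and 1 library left out in turn it was called in 1 of 9 cases, without HCT-FU-c replicate 3 (0.65, adjusted p = 0.0398 in edgeR). miR-320a-3p (0.093), miR-320b (-0.098), miR-320d (-0.34) and miR-877-5p (-0.46) had log2 fold changes with intervals that held 0. The median over the 6 members was -0.22 on the log2 scale, beside 0.024 over all miRNAs, with 2 members higher and 4 lower.

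The comparison of the sublines with each other asks whether their levels differed. With the line alone, edgeR called 0 of 6 members and 4.36% of all miRNAs, with 0 members and 62 of the 367 at an unadjusted p under 0.05. DESeq2 called none of the members and 43 of 365 miRNAs. With the replicate block, edgeR called 1 of 6 members, miR-484, and 26.4% of all miRNAs. A call on 1 member is thus no larger a share than in the whole table.

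Between the sublines, HCT-Oxa-c had the lower miR-484 level, by a log2 fold change of -0.57 (SE 0.19, 95% interval -0.95 to -0.19) and adjusted p = 0.0264 in edgeR with the block. With the line alone it was -0.64 (SE 0.43, -1.62 to 0.33) with adjusted p = 0.565. The same-numbered ratios of HCT-Oxa-c to HCT-FU-c were 0.550 and 0.606 in replicates 1 and 2 and 0.975 in replicate 3, so the difference stood in the first 2 pairs and was nearly absent in the third. With replicates 1 and 2 only, edgeR gave -0.79 with adjusted p = 0.0150.

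The call on miR-484 rested on few libraries. With the block and 1 library left out in turn, the log2 fold change stayed between -0.74 and -0.34 and the call was lost in 5 of 9 cases. The adjusted p in edgeR was then 0.0513 without HCT116 replicate 2, 0.158 without HCT-FU-c replicate 1, 0.119 without HCT-FU-c replicate 2, 0.328 without HCT-Oxa-c replicate 1 and 0.178 without HCT-Oxa-c replicate 2. The call was kept without HCT116 replicate 1 and without the replicate 3 library of any line.

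The other members were not called between the sublines in either model. miR-877-5p had same-numbered ratios of HCT-Oxa-c to HCT-FU-c of 0.994, 0.660 and 0.500 and a log2 fold change of -0.54 (95% interval -1.34 to 0.26). With replicates 1 and 2 only this was -0.30. The log2 fold change of miR-320c was 0.51 (-0.37 to 1.39) and that of miR-320d was 0.86 (-0.78 to 2.51). The value of miR-320d depended on single libraries, from 0.44 (HCT-FU-c replicate 2 left out) to 1.54 (HCT-FU-c replicate 3 left out), and it was called in neither case. Both miR-320c, above, and miR-877-5p, below, had sublines that did not overlap, as did 22.9% of the tested miRNAs. miR-320a-3p and miR-320b had log2 fold changes of 0.19 and 0.21. The median over the 6 members was 0.20 on the log2 scale, beside -0.072 over all miRNAs, with 4 members higher and 2 lower. The comparisons share libraries in pairs, so they are not independent of one another.

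More members passed the test of the replicate number than that of any pair of lines. In the model with the block, the term for the replicate number passed an adjusted p of 0.05 in edgeR for 4 of 6 members, beside 45.5% of all 367 miRNAs. The called members were miR-320a-3p, miR-320b, miR-320d and miR-484. Without HCT-Oxa-c replicate 2 the count fell to 2.

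miR-320a-3p was higher in replicate 3 than in replicate 1 by 1.07 on the log2 scale (SE 0.15, 95% interval 0.75 to 1.39), with adjusted p = 1.09e-05 in edgeR for the whole replicate term. Replicate 3 was 1.70, 2.04 and 1.85 times the mean of replicates 1 and 2 in HCT116, HCT-FU-c and HCT-Oxa-c. miR-484 went the other way, with -0.99 (SE 0.19, -1.39 to -0.60) and adjusted p = 0.00015 in edgeR for the whole replicate term. Its replicate 3 libraries stood at 0.489, 0.378 and 0.638 times the mean of the others. miR-320a-3p and miR-484 thus moved in opposite directions between the same libraries. By size of this difference they ranked 110 and 123 among the 367 tested miRNAs. The median of all tested miRNAs was -0.0012, which the scaling of library sizes holds near 0, so it is no contrast to the members.

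The less abundant rows followed replicate 3 less evenly. Differences and intervals here are for replicate 3 minus replicate 1, and adjusted p values are for the whole replicate term. miR-320b differed by 0.70 between replicates 3 and 1 (95% interval 0.10 to 1.29, adjusted p = 0.0294 in edgeR), with replicate 3 at 1.88, 2.44 and 1.15 times the mean of the others. miR-320d differed by 0.81 with an interval that held 0 (-0.14 to 1.77), and was lower in replicate 2 than in replicate 1 by a fitted -1.11. Its adjusted p of 0.00858 in edgeR is for both differences together and not for replicate 3 against replicate 1. miR-320c, with 0.54 and adjusted p = 0.511, and miR-877-5p, with 0.40 and adjusted p = 0.311, were not called. For miR-877-5p the replicate 3 library was 1.82 and 1.53 times the mean of the others in HCT116 and HCT-FU-c and 0.934 times in HCT-Oxa-c.

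Red cell miRNAs moved with the replicate number as well. The red cell list, miR-451a and miR-486-5p, summed to 8.91 to 31.0 CPM in replicates 1 and 2 and to 385, 282 and 562 CPM in replicate 3 of HCT116, HCT-FU-c and HCT-Oxa-c, and both of its miRNAs were higher in all 3 replicate 3 libraries. Total counts were lowest in the same libraries. The part of either in the levels of miR-320a-3p and miR-484 was not tested.

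**Figure D2:**
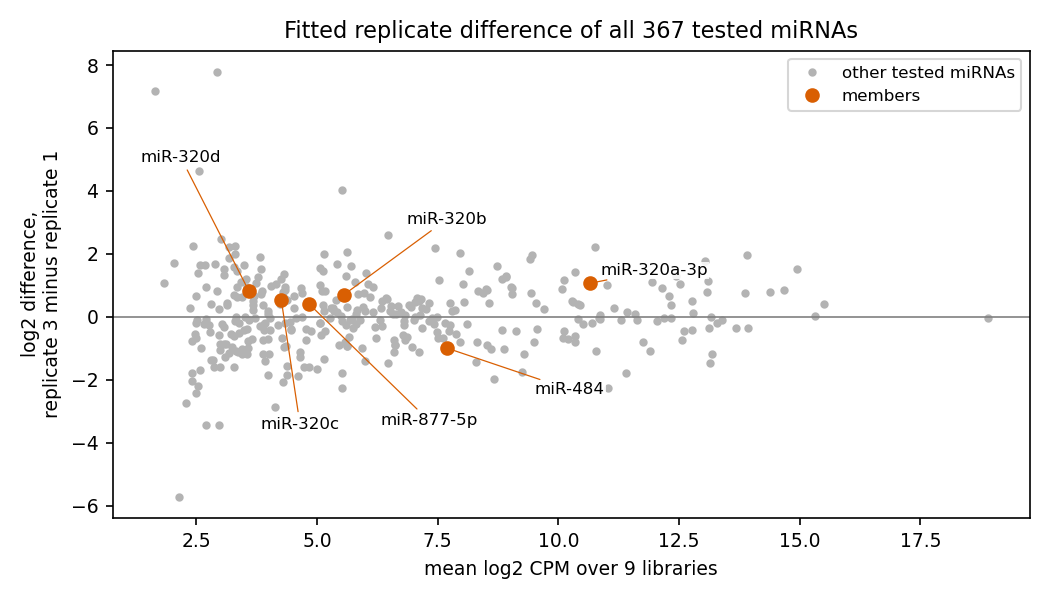
Fitted log2 difference of replicate 3 minus replicate 1, over all lines, against the mean log2 CPM for all 367 tested miRNAs, with the 6 members in orange. miR-320a-3p (1.07) lies above and miR-484 (-0.99) below the line at 0, and many other miRNAs lie farther out.

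Over the 9 libraries, log2 CPM of miR-320a-3p and miR-484 had a Pearson correlation of -0.84, and -0.89 around the line means. miR-320b had -0.90 with miR-484 and 0.81 with miR-320a-3p. The 9 points share the replicate split described above, so these values describe it again. The tested miRNAs most like miR-320a-3p over the 9 libraries were miR-26a-5p (0.91), miR-375-3p (0.91) and miR-146b-5p (0.90). Those most like miR-484 were miR-18a-3p, miR-151a-5p and miR-556-5p, each with a correlation of 0.95. For miR-877-5p they were miR-30a-3p (0.85), miR-132-5p (0.85) and miR-130b-3p (0.84).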

How the data were processed

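The authors prepared small RNA libraries from total RNA, sequenced them on an Illumina MiSeq and deposited raw read counts per mature miRNA beside a normalized signal, which is the deposited count divided by 1 size factor per library. The signal was not tested. The submitters' processing notes name CASAVA 1.8, Bowtie 1.1.2, DESeq2 and GRCh38.p7. Mapping settings, use of strand and the treatment of reads that match several miRNAs are not given in the sources used here. Lines and replicate numbers came from the labels, and 0 value columns were left unmapped. The replicates are labelled biological.

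filterByExpr (minimum count 10, minimum total 15) kept 367 of 1198 miRNAs. edgeR 4.0.16 on R 4.3.3 fitted its quasi-likelihood test to the counts of all 9 libraries with TMM scaling and the line as factor (prior count for fold changes 0.125), with Benjamini-Hochberg adjustment. DESeq2 1.42.0 was an alternative, and shares were compared by exact permutation (scipy 1.17.1). The code was tested on simulated counts. Deviations from the line means of libraries with the same replicate number in the labels correlated at 0.41 to 0.76 in every pair, and those of different numbers at -0.68 to 0.61. Since every pair of the same number was over 0.1, a block for the replicate number was fitted as an alternative, although the ranges overlap. The main fit, DESeq2 and the permutation tests leave the number out and are unpaired. The block is given beside results it changes. The block lowered the biological coefficient of variation from 0.458 to 0.174. Shared sequencing runs were not analysed here. Total counts of 856383 to 2207538 set a limit of 1.34 to 4.01 CPM for 3 counts. No replicate pair of a line agreed within sampling noise (chi-square per degree of freedom 11.6 to 461).

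The text names every row of the member list and the 3 tested miRNAs most correlated with each of miR-320a-3p, miR-484 and miR-877-5p. It also names tested mirtrons of the chosen list and miRNAs sharing a seed with a member. Members, lists and markers were chosen with earlier results of these data known, and some raw counts had been seen in a supplement of the paper. Alternatives covered scaling (total counts, RLE, or TMM leaving out miR-21-5p), the filter, the tool, the libraries fitted, the block and each library left out.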

Additional observations from a re-analysis of the deposited data

Results flagged for a closer look

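miR-484 is listed because its level differed between the sublines in a direct test of HCT-Oxa-c against HCT-FU-c. With 1 subline per drug, this cannot be told apart from a difference between any sublines grown apart. With all libraries, miR-484 was called against HCT116 in neither subline. With the replicate number as a block, the log2 difference of HCT-Oxa-c minus HCT-FU-c was -0.57 (adjusted p = 0.0264 in edgeR's quasi-likelihood test). HCT-FU-c was the higher in 3 of 3 same-numbered pairs, by little in replicate 3, and the difference was not called without the block (adjusted p = 0.565). With all its alternatives, adjusted p ran from 0.00737 to 0.971.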

How the results depend on the processing

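Of the 18 fold changes (6 members in 3 comparisons), the alternatives listed at the outset gave 321 values, of which 299 kept direction and call, 20 changed sign and 2 became called. Under these alternatives the number of called members was 0 in both comparisons with HCT116, and between the sublines it was 1 with the replicate block and 1 with replicates 1 and 2 only, both times miR-484. The block over all 9 libraries changed no other call on a member. The block without HCT-FU-c replicate 3, added after seeing the data, also called miR-484 in HCT-FU-c against HCT116 (0.65, adjusted p = 0.0398 in edgeR). The block moved the count over all miRNAs from 9 to 54, from 0 to 20 and from 16 to 97. DESeq2 called 23, 4 and 43, and replicates 1 and 2 only gave 39, 8 and 75. Scaling by total counts shifted the median miRNA to 0.19 in HCT-FU-c against HCT116 and to -0.26 between the sublines, and turned miR-320b to 0.037 in HCT-FU-c against HCT116. Replicates 1 and 2 only turned miR-320c to 0.22 in HCT-Oxa-c against HCT116 and miR-320a-3p to -0.034 in HCT-FU-c against HCT116. The cause was not tested.

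With 1 library left out in turn, members that changed sign in at least 1 case ranged, in HCT-Oxa-c against HCT116, from -0.38 to 0.084 for miR-484 (0.13 with the block and without HCT-Oxa-c replicate 1), from -0.11 to 0.47 for miR-320b, from -0.44 to 0.23 for miR-320c and from -0.074 to 0.59 for miR-320a-3p. In HCT-FU-c against HCT116 they ranged from -0.34 to 0.39 for miR-320a-3p, from -0.64 to 0.26 for miR-320b and from -1.02 to 0.33 for miR-320d, and between the sublines from -0.17 to 0.62 for miR-320a-3p and from -0.057 to 0.76 for miR-320b. Without a change of sign, miR-320d ranged from 0.20 to 1.204 in HCT-Oxa-c against HCT116 and from 0.44 to 1.54 between the sublines. The share of miR-320b to miR-320e differed by -1.01 to 0.548 percentage points between HCT-Oxa-c and HCT116, by -1.45 to -0.440 between HCT-FU-c and HCT116 and by -0.154 to 1.40 between the sublines. The replicate term called 2 to 4 members, with 2 without HCT-Oxa-c replicate 2. miR-877-5p was lower in HCT-Oxa-c than in HCT116 in every alternative, from -1.18 to -0.65, with adjusted p from 0.0530 to 0.806. Requiring 10 counts in every library left miR-320d untested. The filters on low counts left out miR-320e and miR-877-3p, which entered only the fit without a filter, of 1198 rows. Their values in that fit are not given.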
